A study of Homo sapiens with 18 samples.

Results

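The full response of U2OS cells to estrogen receptor α (ERα) was measured as the difference between cells in which the receptor had been switched on and given its hormone and cells of the same line in which it had not been switched on. U2OS is a human osteosarcoma cell line, and the line compared here had been stably transfected with an ERα vector that doxycycline, an antibiotic, turns on. The liganded group received doxycycline plus E2, the usual short name of the estrogen estradiol (U2OS_ERa_DoxyE2), and the uninduced group received no doxycycline (U2OS_ERa_noDoxy). Samples were placed in these groups by their titles, with 3 single-colour Illumina arrays in each, so 6 of the 18 arrays of the study carry the comparison. The other 12 arrays hold ERα cells with doxycycline alone and 3 matching groups of cells with an estrogen receptor β (ERβ) vector, also transfected U2OS cells. Both groups compared carry the ERα vector, no group lacks a vector and none received E2 without doxycycline, so the effects of doxycycline itself and of the induced receptor cannot be told apart. Doses, treatment times and whether the line is 1 clone are not given in the sources used here. Whether the 3 samples of a group were grown as separate cultures is not stated in the labels, so a p-value covers only the variation among arrays, possibly technical.

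ERα is a nuclear receptor, a transcription factor that is activated by binding estradiol. Once liganded it dimerizes, binds estrogen response elements in DNA or is tethered there through other factors such as AP-1, and recruits coactivators or corepressors. In breast epithelium it drives proliferation and genes such as GREB1, PGR and TFF1, and in bone estrogen restrains the loss of bone mass.

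On the 6 arrays 20589 to 22485 probes were detected, and 13505 genes entered the fit. Levels are normalized log2 signals, and changes are log2 differences, liganded minus uninduced, ± standard error (SE) with 3 arrays a side, unless a fold is stated. A gene counts as called, and is said to rise or fall, where limma's Benjamini-Hochberg adjusted p over all 13505 genes was below 0.05. The median SE was 0.139, and the small number of arrays limits the precision. RUNX2 and COL1A1, genes of the osteoblast lineage, were detected on all 6 arrays. Of 29 listed osteoblast regulators 20 were measured and 9 were not, and 2 of the 20 were undetected in both groups.

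The receptor's own gene could not be used to check the labels. The 1 ESR1 probe gave 6.36, 6.04 and 6.62 on the liganded arrays, against 5.77, 6.16 and 6.72 on the uninduced arrays. It was detected on 2 of 3 and on 1 of 3 of them, the groups overlapped, and the difference of 0.12 ± 0.23 did not pass the test (adjusted p = 0.772). The position of this probe relative to the vector's insert was not analysed here, and a probe outside that sequence would say nothing about induction. ESR2, which encodes ERβ, read 6.33, 5.28 and 6.52 in liganded cells, against 5.49, 5.34 and 5.27 in uninduced cells, near the lower limit of detection. Its change of 0.68 was called although the groups overlapped. That call was lost with only the arrays compared (adjusted p = 0.193) and with no background correction (adjusted p = 0.116), among other settings. In the ERβ line the ESR2 level was 16.03 on the first liganded array and 11.39 on the first array without doxycycline.

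Of the 13505 genes, 3430 were called, or 25.4%, with 1724 higher in liganded cells (12.8%) and 1706 lower (12.6%). A change of at least 2-fold was called for 803 genes (5.95%), of which 566 rose (4.19%) and 237 fell (1.75%), and 179 rises against 19 falls reached 4-fold. The median change over all genes was -0.03. In such samples fewer cells of a type and less RNA per cell cannot be told apart. With a median shift of each array in place of quantile normalization the split was 1900 higher and 1147 lower. Leaving out replicate set 1, the same-numbered arrays of every group, left 1660 calls, and leaving out set 2 left 2017. For 5113 genes (37.9%), called or not, the arrays of the groups did not overlap. Uninduced arrays held no detected signal for 165 of the 566 larger rises, and liganded arrays held none for 20 of the 237 larger falls.

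Few genes differed with doxycycline alone. ERα cells with doxycycline alone differed from uninduced cells in 2 called genes (0.0148%), while doxycycline plus E2 differed from doxycycline alone in 2975 (22%), 1475 higher (10.9%) and 1500 lower (11.1%). These steps share arrays with the full response, so they are given side by side only. The 2 genes were ATF3, a stress-induced transcription factor, and FYN, a tyrosine kinase of the SRC family. ATF3 measured 9.978, 9.999 and 10.135 without doxycycline, 11.18, 11.03 and 11.02 with doxycycline and 11.22, 11.15 and 10.97 with doxycycline plus E2. FYN measured 10.78, 10.93 and 11.11 without doxycycline, 9.50, 9.79 and 9.48 with doxycycline and 9.66, 9.60 and 9.55 with doxycycline plus E2. Between doxycycline plus E2 and doxycycline alone neither passed the test (adjusted p = 0.850 for ATF3 and 0.956 for FYN). Their full changes were 1.07 ± 0.09 (adjusted p = 3.11e-07) for ATF3 and -1.33 ± 0.12 (adjusted p = 8.92e-07) for FYN, and the doxycycline step alone gave 1.04 and -1.35, each with an adjusted p of 0.000111. That step lost both calls without replicate set 1 (adjusted p = 0.201 for both) and without set 2 (adjusted p = 0.0993 for ATF3 and 0.0553 for FYN). At an unadjusted p below 0.05, 434 genes were higher and 271 lower with doxycycline alone.

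No other doxycycline step passed the test, and a few of the larger ones are given by their values. TNFAIP3, an inhibitor of NF-kB signalling, changed by 1.53 ± 0.19 in full (adjusted p = 2.19e-05) and by 0.78 with doxycycline alone (adjusted p = 0.417). MAMDC2, a proteoglycan gene, read 4.82, 5.40 and 5.37 in liganded cells, where it was not detected, against 7.43, 7.77 and 7.76 in uninduced cells, and 5.99, 6.51 and 6.92 with doxycycline alone. FGF21, a stress-responsive hormone, was undetected in uninduced cells and was listed at 7.27, 7.49 and 7.37 in liganded cells, with 8.04, 7.87 and 7.49 under doxycycline alone. Its full rise was at least 2.11-fold (adjusted p = 0.00737) and was not called without replicate set 1.

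**Figure D1:**
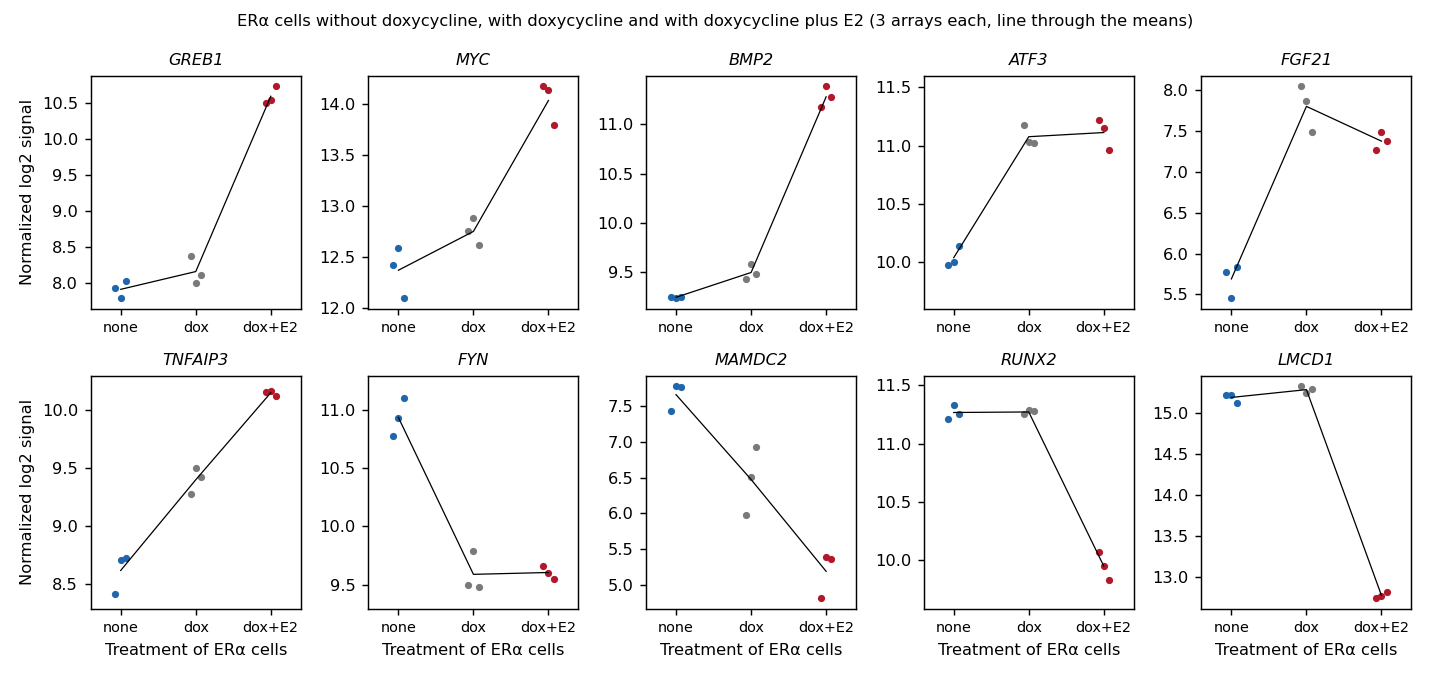
Normalized log2 signal of 10 genes on each array of ERα cells under no doxycycline, doxycycline alone and doxycycline plus E2 (3 arrays each; the line joins the group means, and each panel has its own axis). ATF3 and FYN differ mainly between no doxycycline and doxycycline alone, while GREB1, BMP2, RUNX2 and LMCD1 differ mainly between doxycycline alone and doxycycline plus E2.

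Most of the largest rises were in genes not detected in uninduced cells. Where a gene was undetected on every array of 1 group, its fold is a lower limit, the mean of the brighter group against, on each array, the higher of the lowest detected signal and the gene's own signal, and is written as "at least". MSMB, which encodes a secreted protein of prostatic fluid, had 12.11, 12.18 and 12.35 in liganded cells, against 4.931, 4.996 and 5.499 in uninduced cells, at least 60.3-fold (adjusted p = 2.52e-13). TH, tyrosine hydroxylase, the rate-limiting enzyme of catecholamine synthesis, had 11.99, 12.01 and 12.12 in liganded cells, against 5.65, 5.67 and 5.16 in uninduced cells, at least 53.6-fold. KRT19, a simple epithelial keratin and a known estrogen target, had 11.33, 11.47 and 11.31 in liganded cells, against 4.65, 4.89 and 4.91 in uninduced cells, at least 33.6-fold. All 3 genes were picked for large rises between groups that do not overlap, and none of them was detected with doxycycline alone. OTOF, otoferlin, a calcium sensor of synaptic vesicle fusion in hair cells, rose by at least 35.3-fold. KRT72 and KRT73, keratins typical of the hair follicle's inner root sheath, rose by at least 20.2-fold and at least 22.2-fold.

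Among the other largest rises, several encode receptors, channels or neural proteins. RET, a receptor tyrosine kinase for ligands of the GDNF family, read 10.89, 11.05 and 10.96 in liganded cells, against 5.77, 5.88 and 6.03 in uninduced cells, at least 25.4-fold. CMKLR1, the chemerin receptor, rose by at least 17.7-fold, UNC5A, a netrin receptor, by at least 10.8-fold, and NEFH, the heavy neurofilament subunit, by at least 12.3-fold. GABBR2, a subunit of the GABA-B receptor, changed by 4.49 ± 0.15 and CACNA1I, a T-type calcium channel subunit, by 4.52 ± 0.21, each detected on 1 of 3 uninduced arrays. COL18A1, a basement membrane collagen, rose by at least 20.1-fold. CHST8, a sulfotransferase acting on glycoprotein hormones, rose by at least 17.3-fold, MYZAP, a protein of cardiac junctions, by at least 16.4-fold, and PADI4, which converts arginine to citrulline in histones, by at least 13.8-fold.

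**Figure D2:**
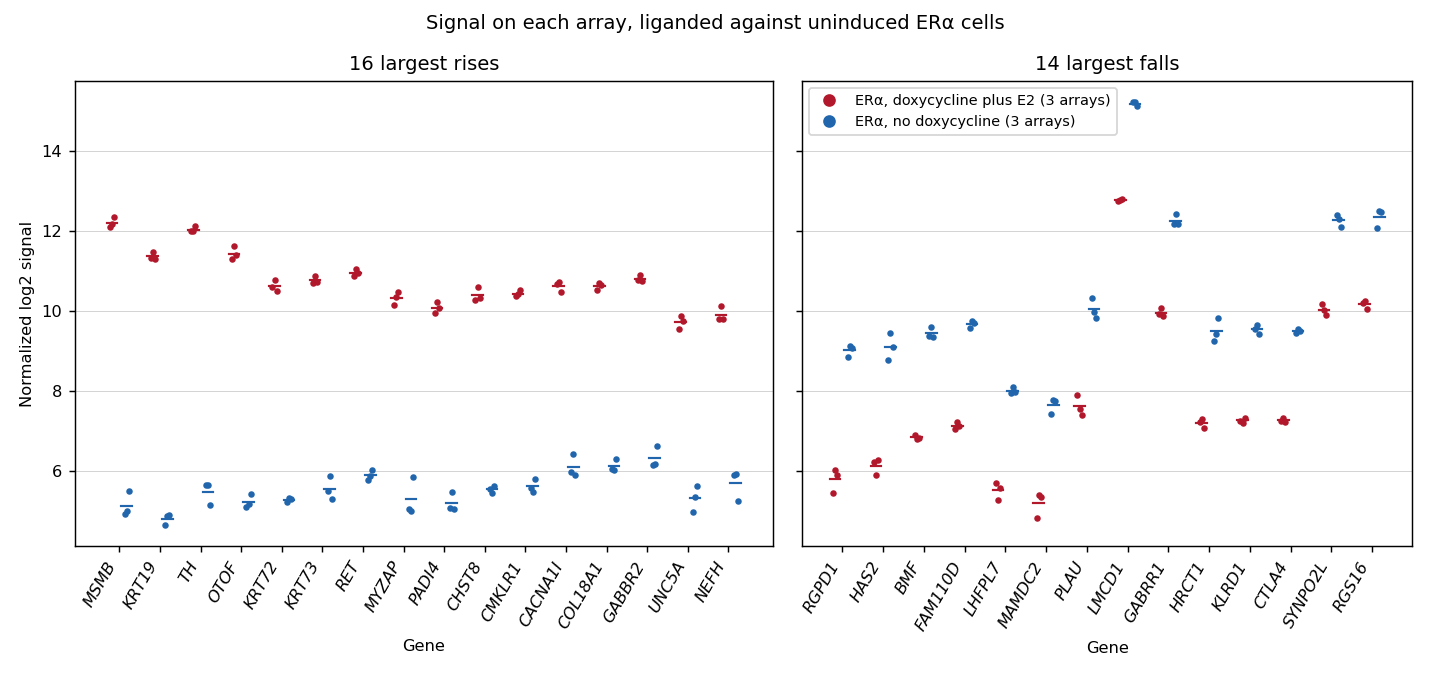
Normalized log2 signal on each array for the 16 largest rises and the 14 largest falls among called genes with no overlap between the groups, with red points for liganded and blue points for uninduced ERα cells (3 arrays each; bars are group means). The uninduced arrays lie below 7 for all 16 rises, and the liganded arrays lie above 9.

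Genes known as estrogen targets from breast cells and other systems rose in U2OS cells too. Of 43 measured members of that list, 32 rose (74.4%) and 2 fell (4.65%), against 12.8% and 12.6% of all genes. Their median change was 1.28, against -0.03 over all genes. This list, like the others below, was chosen with earlier results of these data known, so its counts are descriptive and not an independent test. GREB1, an estrogen-induced regulator of growth, read 10.50, 10.54 and 10.73 in liganded cells, against 7.93, 7.79 and 8.02 in uninduced cells (2.68 ± 0.13, 6.40-fold, adjusted p = 8.8e-10). CA12, a membrane carbonic anhydrase, read 12.32, 12.52 and 12.33 in liganded cells, against 8.91, 8.91 and 8.64 in uninduced cells (3.57 ± 0.14, 11.9-fold). PDZK1, a scaffold protein of transporters, rose by at least 7.93-fold, CISH, an inhibitor of cytokine signalling, by at least 5.18-fold, and PTGES, a prostaglandin E synthase, by at least 3.79-fold. CCN5, a secreted matricellular protein, read 8.44, 8.45 and 8.47 in liganded cells, against 5.39, 5.06 and 5.02 in uninduced cells, at least 4.46-fold. ABCA3, a lipid transporter, changed by 2.85 ± 0.21. CTSD, the lysosomal protease cathepsin D, moved less, by 0.39 ± 0.10 (adjusted p = 0.0115), and lost its call without replicate set 1 or 3. The probes for PGR and TFF1 were detected on none of the 18 arrays. The count of rises on the list stayed between 29 and 33 when an array or a replicate set was left out.

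Proximal promoters were searched for the consensus estrogen response element, GGTCANNNTGACC on both strands, in RefSeq windows of 300 bases (250 before to 50 after the start, GRCh38.p14). An exact match was found in 0 of the 412 windows matched to rises of at least 2-fold and in 2 of 10937 for all tested genes. With at most 1 mismatch there were matches in 7 of the 412 (1.7%), in 57 of the 10937 (0.521%), in 236 of all 27305 windows (0.864%) and in 0 of 191 windows of falls. None of the 10 windows found for the 16 largest rises held one. A match describes these letters only. The 3 windows of the 7 with the largest changes are shown because they join a near match to a rise in the same gene, and they were chosen after their values were seen. Capitals mark the site, and substitutions give the consensus base, its position from 1 at the 5′ end of the site and the base found. OXT lies on chromosome 20 (chr20:3071370-3071669, plus strand, C4G, 165 bases before the start), ADAMTSL5 on chromosome 19 (chr19:1512970-1513269, minus strand, T9G) and SPIRE2 on chromosome 16 (chr16:89828225-89828524, plus strand, T3C).
OXT: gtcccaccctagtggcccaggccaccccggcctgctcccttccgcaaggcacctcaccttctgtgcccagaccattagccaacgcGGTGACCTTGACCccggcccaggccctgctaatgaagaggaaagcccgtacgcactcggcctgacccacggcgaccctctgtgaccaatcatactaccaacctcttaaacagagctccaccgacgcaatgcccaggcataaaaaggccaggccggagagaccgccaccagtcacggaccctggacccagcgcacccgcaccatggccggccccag
ADAMTSL5: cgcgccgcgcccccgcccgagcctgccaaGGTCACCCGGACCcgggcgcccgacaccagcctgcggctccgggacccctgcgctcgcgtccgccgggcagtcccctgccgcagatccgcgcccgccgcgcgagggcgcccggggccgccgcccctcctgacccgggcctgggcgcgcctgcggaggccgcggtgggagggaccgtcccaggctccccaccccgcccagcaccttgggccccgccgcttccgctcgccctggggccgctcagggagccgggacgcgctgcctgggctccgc
SPIRE2: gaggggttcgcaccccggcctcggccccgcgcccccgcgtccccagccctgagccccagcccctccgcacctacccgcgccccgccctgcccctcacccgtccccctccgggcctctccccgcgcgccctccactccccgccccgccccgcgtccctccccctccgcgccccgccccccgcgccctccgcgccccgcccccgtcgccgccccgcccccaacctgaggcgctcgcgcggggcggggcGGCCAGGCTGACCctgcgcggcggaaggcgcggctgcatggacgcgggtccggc

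OXT, which encodes the hormone oxytocin, read 7.81, 8.23 and 8.02 in liganded cells, against 5.33, 4.95 and 5.43 in uninduced cells, at least 3.3-fold (adjusted p = 6.45e-07). ADAMTSL5, a secreted matrix protein, read 10.72, 10.68 and 10.62 in liganded cells, against 8.33, 7.99 and 7.73 in uninduced cells (2.66 ± 0.14, adjusted p = 2.75e-09). SPIRE2, an actin nucleator, read 11.14, 11.15 and 11.12 in liganded cells, against 9.67, 9.66 and 9.25 in uninduced cells (1.61 ± 0.13, adjusted p = 2.25e-07). In none of the 3 did the groups overlap. A lack of overlap held for 37.9% of all genes.

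Of 26 measured nuclear receptors and cofactors, 10 rose (38.5%, against 12.8% of all genes), 3 fell (11.5%, against 12.6%) and 13 did not pass, with a median of 0.30. RARA, the retinoic acid receptor α, read 13.36, 13.34 and 13.24 in liganded cells, against 12.08, 12.12 and 11.90 in uninduced cells (1.28 ± 0.09, adjusted p = 5.95e-08). Its partner RXRA changed by 0.90 ± 0.11, the orphan receptor ESRRA by 0.76 ± 0.08, the corepressor NRIP1 by 0.83 ± 0.10 and the coactivator PPARGC1B by 1.05 ± 0.19. GPER1, a membrane receptor that responds to estrogens, changed by 1.02 ± 0.13. Leaving out an array or a replicate set left 7 to 9 rises and 0 to 3 falls, with 0 falls and 7 rises without replicate set 1. Among 17 measured genes of the aryl hydrocarbon receptor and of estrogen metabolism, 3 rose (17.6%) and 1 fell (5.88%). TIPARP, an ADP-ribosyltransferase induced by that receptor, changed by 1.83 ± 0.07, CYP1A2, which hydroxylates estradiol, rose by at least 2.88-fold, and CYP19A1, aromatase, by at least 1.48-fold.

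Of 33 genes of receptor tyrosine kinases and growth factors, 5 rose (15.2%, against 12.8% of all genes) and 6 fell (18.2%, against 12.6%), shares near those of all genes. FGFR3, a fibroblast growth factor receptor that restrains growth of cartilage, read 12.56, 12.67 and 12.50 in liganded cells, against 9.18, 9.50 and 8.89 in uninduced cells (3.39 ± 0.13, 10.5-fold, adjusted p = 4.73e-11). TGFA, a ligand of the EGF receptor, changed by 2.29 ± 0.17 and NRTN, neurturin, which signals through RET, by 2.16 ± 0.27. ERBB3, a receptor for neuregulins, fell by 1.63 on the log2 scale (SE 0.17) and FGF1 by 1.60 (SE 0.17). The number of falls was 3 without replicate set 1 or 2 and without liganded array 7 or 9. Of 24 G protein signalling genes, 11 rose (45.8%), 4 fell (16.7%) and 9 did not pass, with a median of 0.19 and 6 rises without replicate set 1. LPAR1, a lysophosphatidic acid receptor, read 11.22, 11.34 and 11.35 in liganded cells, against 7.60, 7.82 and 7.52 in uninduced cells (3.66 ± 0.18, 12.6-fold). RGS proteins shorten G protein signalling, and their genes split: RGS10 (2.57 ± 0.09), RGS4 (2.29 ± 0.14) and RGS19 (1.70 ± 0.14) rose while RGS16 fell (-2.18 ± 0.11).

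**Figure D3:**
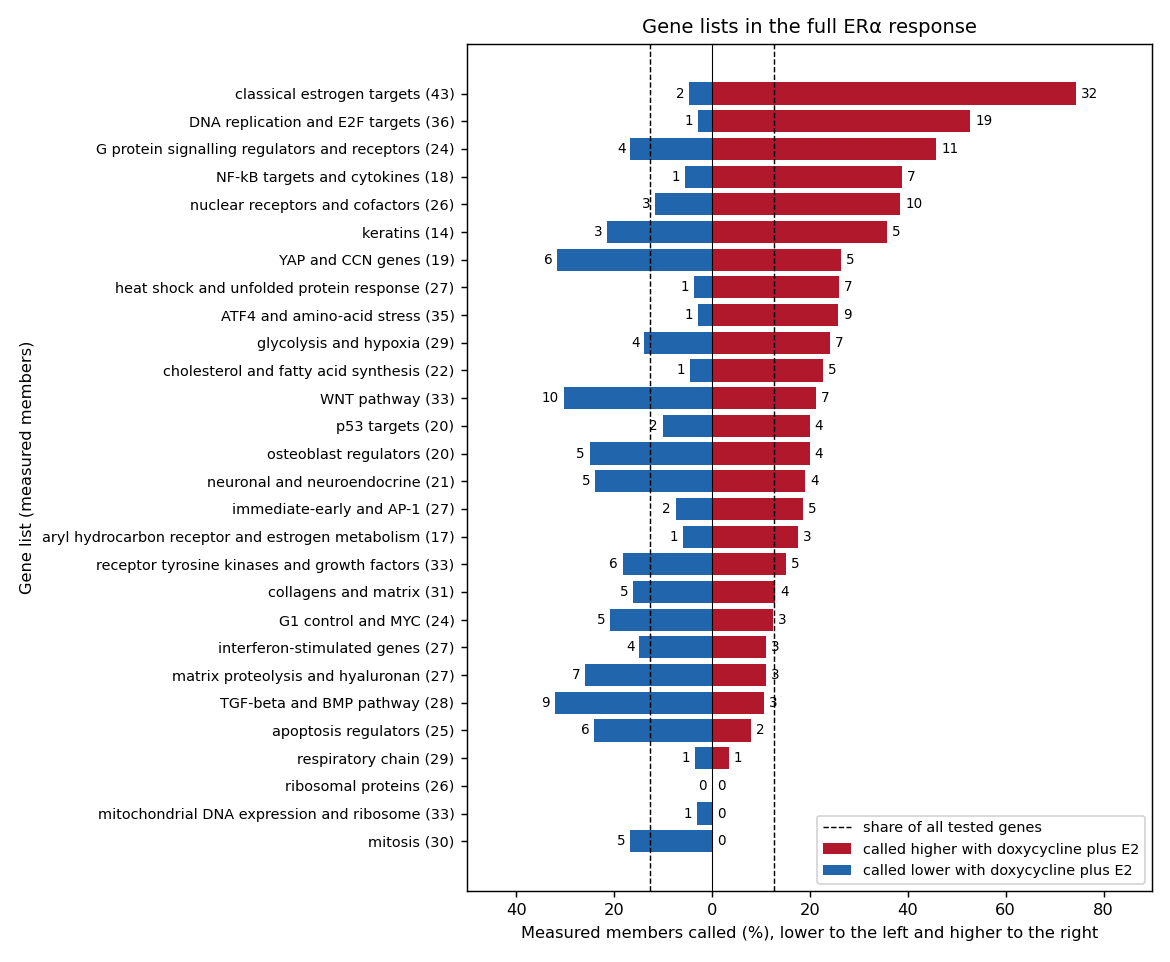
Share of the measured members of each gene list called higher (red, to the right) and lower (blue, to the left) in liganded than in uninduced ERα cells, in percent, with the counts beside the bars and the number measured in brackets. Dashed lines mark the shares among all 13505 genes (12.8% higher, 12.6% lower). Classical estrogen targets, with 32 of 43 higher, stand at the top, and ribosomal proteins show 0 calls.

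The largest falls included genes of hyaluronan synthesis and plasminogen activation. HAS2, a hyaluronan synthase, read 6.23, 5.90 and 6.29 in liganded cells, against 8.77, 9.45 and 9.11 in uninduced cells (-2.97 ± 0.20, adjusted p = 4.29e-08), and was detected on 1 of 3 liganded arrays. PLAU, the urokinase plasminogen activator, read 7.92, 7.56 and 7.39 in liganded cells, against 10.32, 9.97 and 9.83 in uninduced cells (5.34-fold lower, adjusted p = 1.01e-06). Neither gene's groups overlapped, as the rule that picked the largest falls required. In the list of matrix proteolysis and hyaluronan, 7 of 27 members fell (25.9%, against 12.6% of all genes) and 3 rose (11.1%, against 12.8%). The protease ADAM19 changed by -0.92 ± 0.16. In the other direction CEMIP, a protein of hyaluronan breakdown, changed by 1.97 ± 0.28 and TIMP3, an inhibitor of metalloproteinases, by 2.55 ± 0.23. Leaving out an array or a set left 5 to 8 falls. Among 31 collagen and matrix genes 4 rose (12.9%) and 5 fell (16.1%), shares near those of all genes. THBS1, thrombospondin-1, changed by -0.96 ± 0.17 and COL6A1 by 0.86 ± 0.12. The falls numbered 8 with the replicate number as a block, 2 without replicate set 1 and 9 without uninduced array 3.

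BMF, a pro-apoptotic BH3-only protein, read 6.91, 6.80 and 6.84 in liganded cells, against 9.39, 9.61 and 9.36 in uninduced cells (6.08-fold lower, adjusted p = 1.28e-08). LMCD1, a LIM-domain regulator of GATA factors, was among the most strongly expressed genes that fell, with 12.74, 12.77 and 12.81 in liganded cells, against 15.22, 15.22 and 15.12 in uninduced cells (5.32-fold lower, adjusted p = 7.33e-10). RGPD1, a RanBP2-like protein, was undetected in liganded cells and at least 7.08-fold lower (adjusted p = 3.3e-10); it belongs to a family of near-identical copies, so its probe may read more than 1 of them. LHFPL7 was at least 3.51-fold lower and MAMDC2, described above, at least 2.74-fold lower. The remaining large falls ranged from -2.54 ± 0.18 for FAM110D to -2.23 ± 0.18 for SYNPO2L and included GABRR1, a GABA receptor subunit, HRCT1, KLRD1, a receptor of natural killer cells, and CTLA4, an inhibitory receptor of T cells. Of 25 apoptosis regulators 6 fell (24.0%, against 12.6% of all genes) and 2 rose (8.0%, against 12.8%). BCL2L11, another BH3-only protein, changed by -0.94 ± 0.16 and CFLAR, an inhibitor of caspase-8, by -0.83 ± 0.12, while BCL2, which blocks apoptosis, changed by 1.19 ± 0.14 and BNIP3 by 0.73 ± 0.10.

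Bone genes changed in both directions. RUNX2, the master transcription factor of osteoblasts, read 10.07, 9.95 and 9.83 in liganded cells, against 11.21, 11.34 and 11.26 in uninduced cells (-1.32 ± 0.11, 2.50-fold lower, adjusted p = 2.69e-07). Its groups did not overlap, and the same held for 37.9% of all genes. PTH1R, the parathyroid hormone receptor, read 9.52, 9.74 and 9.79 in liganded cells, against 5.80, 6.74 and 5.94 in uninduced cells (3.52 ± 0.30), with 1 of 3 uninduced arrays detected. The bone morphogenetic proteins BMP2 (2.04 ± 0.15) and BMP7 (1.62 ± 0.14) rose, and TNFRSF11B, osteoprotegerin, the decoy receptor that restrains osteoclast formation, fell (-0.97 ± 0.12). In all, 4 of 20 osteoblast regulators rose and 5 fell, with a median of -0.13. Among all genes 12.8% rose and 12.6% fell, so both counts are above those shares. TGF-beta and BMP pathway genes numbered 3 rises (10.7%) and 9 falls (32.1%) among 28, and 7 and 10 with the authors' processed values. FST, follistatin, which binds activins, read 15.93, 16.03 and 15.94 in liganded cells, against 13.53, 13.73 and 13.78 in uninduced cells (2.28 ± 0.09). The BMP targets ID1 (-1.55 ± 0.17) and SMAD6 (-1.79 ± 0.21), the receptor BMPR1B (-0.84 ± 0.12) and TGFBI (-1.81 ± 0.14), a matrix protein induced by TGF-beta, fell. Leaving out an array or a set left 1 to 3 rises and 6 to 9 falls; rises numbered 1 without replicate set 1 or 2, uninduced array 1 or liganded array 7 or 9.

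Cell-cycle genes did not move as 1 group. Among 36 genes of DNA replication and E2F targets, 19 rose (52.8%, against 12.8% of all genes) and 1 fell (2.78%, against 12.6%). Their median was 0.37, and no change reached 2-fold. E2F2 read 11.95, 12.04 and 11.94 in liganded cells, against 11.19, 11.29 and 10.93 in uninduced cells (0.84 ± 0.13, adjusted p = 0.000148). The chromatin assembly factor subunit CHAF1A changed by 0.77 ± 0.13, ORC1, of the origin recognition complex, by 0.72 ± 0.11, CDC6, which loads the helicase, by 0.72 ± 0.13, and the helicase subunit MCM2 by 0.61 ± 0.10. Rises numbered 8 without replicate set 1 and 14 without set 2. Of 30 mitosis genes 0 rose and 5 fell (16.7%), a share of falls near the 12.6% of all genes. Their median was -0.21, with 0 rises at an unadjusted p below 0.05 in limma. Their falls numbered from 0 (without replicate set 1 or 2) to 7 with an array or set left out, 9 with the replicate number as a block and 13 with the authors' processed values. With doxycycline alone 27 of the 30 were lower, while 49.4% of all genes were higher. Their median there was -0.11, with 0 calls in limma. At an unadjusted p below 0.05 in limma 3 of them were lower, against 271 of all 13505 genes.

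MYC, a transcription factor that drives growth and a known estrogen target, read 14.17, 14.14 and 13.79 in liganded cells, against 12.43, 12.59 and 12.10 in uninduced cells (1.66 ± 0.13, 3.16-fold, adjusted p = 2.09e-07). Its antagonist MNT changed by -0.82 ± 0.09, the cyclin CCND1 by 0.69 ± 0.11, its kinase partner CDK6 by -1.10 ± 0.11 and the inhibitor CDKN1C by -0.92 ± 0.12. In this list of 24 genes, 3 rose (12.5%, against 12.8% of all genes) and 5 fell (20.8%, against 12.6%). The counts were 5 and 7 under the replicate block and 2 and 3 without replicate set 1. Of 20 p53 targets 4 rose and 2 fell, and 2 rose without set 1. GADD45A, a stress-induced growth-arrest gene, changed by 0.70 ± 0.08 and TP53INP1 by -0.80 ± 0.11.

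Of 18 measured cytokine and NF-kB genes 7 rose (38.9%, against 12.8% of all genes) and 1 fell (5.56%, against 12.6%), with a median of 0.39. With doxycycline alone 17 of the 18 were higher than in uninduced cells, against 49.4% of all genes. Their median there was 0.23, with 0 calls in limma. At an unadjusted p below 0.05 in limma 3 of them were higher, against 434 of all 13505 genes. CXCL8, interleukin-8, read 13.58, 13.50 and 13.64 in liganded cells, against 11.12, 10.67 and 10.77 in uninduced cells (2.72 ± 0.29, adjusted p = 4.05e-06). CCL2, a chemokine for monocytes, read 9.84, 10.04 and 9.98 in liganded cells, against 8.69, 8.75 and 8.91 in uninduced cells (1.17 ± 0.16). PTGS2, cyclooxygenase-2, changed by 1.41 ± 0.19 and NFKBIA, the inhibitor of NF-kB, by 0.88 ± 0.15, while IL11 changed by -0.76 ± 0.12. Rises stayed between 5 and 7 with an array or set left out. Interferon-stimulated genes showed 3 rises (11.1%) and 4 falls (14.8%) among 27, shares near those of all genes. ISG20, an exonuclease, changed by 1.95 ± 0.16, IFIT3 by 1.03 ± 0.20 and IRF9, a subunit of the interferon-activated factor, by -0.76 ± 0.14. Falls numbered 1 to 4 with an array or set left out, with 1 without replicate set 1.

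Among 35 genes of ATF4 and amino-acid stress, 9 rose (25.7%, against 12.8% of all genes) and 1 fell (2.86%, against 12.6%). Their median was 0.30, and 15 rose with the authors' processed values. SLC6A9, a glycine transporter, read 10.78, 10.79 and 10.68 in liganded cells, against 8.59, 8.19 and 8.02 in uninduced cells (2.48 ± 0.13, adjusted p = 2.35e-09). MTHFD2, an enzyme of mitochondrial folate metabolism, changed by 0.93 ± 0.14. The 1 fall was DDIT4, an inhibitor of mTORC1, at 12.16, 12.21 and 12.15 in liganded cells, against 13.83, 13.88 and 14.01 in uninduced cells (-1.73 ± 0.27). With doxycycline alone 33 of the 35 genes were higher than in uninduced cells, against 49.4% of all genes, with a median of 0.38. Only ATF3 passed the test there. In limma 17 of the 35 had an unadjusted p below 0.05 in the upward direction, against 434 of all 13505 genes. Of 27 immediate-early and AP-1 genes 5 rose (18.5%) and 2 fell (7.41%), with 9 and 4 under the replicate block and 2 and 1 without replicate set 1. ZFP36, which destabilizes cytokine mRNAs, changed by 1.09 ± 0.17 and DUSP1, a phosphatase of MAP kinases, by -0.86 ± 0.09.

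Metabolic genes showed few large changes. HK1, the hexokinase of most tissues, read 15.90, 15.92 and 15.75 in liganded cells, against 14.31, 14.43 and 13.98 in uninduced cells (1.62 ± 0.12), HK2 changed by 1.46 ± 0.30, and PFKFB3, which activates glycolysis, by 1.02 ± 0.12. The glucose transporter SLC2A1 changed by -0.94 ± 0.10 and the hypoxia-induced peptide ADM by -0.90 ± 0.11. In all, 7 of 29 glycolysis and hypoxia genes rose (24.1%, against 12.8% of all genes) and 4 fell (13.8%, against 12.6%). Falls numbered 7 under the replicate block, and rises numbered 4 without replicate set 1 or 2 or uninduced array 1. DHCR7, which catalyses the last step of cholesterol synthesis, changed by 0.96 ± 0.10. Its list of 22 had 5 rises (22.7%) and 1 fall (4.55%), and 2 rises without set 1. Heat shock and unfolded protein response genes showed 7 rises (25.9%) and 1 fall (3.7%) among 27, and 4 rises without set 1. The small heat shock protein HSPB8 changed by 2.12 ± 0.13, the ER chaperone HSPA5 by 0.70 ± 0.08, its co-chaperone DNAJB9 by 0.66 ± 0.12 and DNAJB1 by -0.63 ± 0.09. Ribosomal proteins showed 0 calls among 26 in limma, 0 at an unadjusted p below 0.05, and changes from -0.19 to 0.14. Mitochondrial ribosome and DNA expression genes showed 0 rises and 1 fall (3.03%) among 33 in limma, with 5 rises at an unadjusted p below 0.05. Their rises numbered 2 under the replicate block and 8 with the authors' processed values (4 with both). The respiratory chain showed 1 rise and 1 fall among 29 (3.45% each, against 12.8% and 12.6% of all genes).

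WNT pathway genes showed 7 rises (21.2%, against 12.8% of all genes) and 10 falls (30.3%, against 12.6%) among 33, with a median of -0.02. There were 3 rises and 6 falls without replicate set 1 and 5 rises and 2 falls without set 2. WNT4, a ligand that progesterone induces in the mouse mammary gland, rose by at least 1.95-fold. FZD1, a WNT receptor, changed by 1.18 ± 0.18 and NKD2, an inhibitor of the pathway, by 1.02 ± 0.12. Of 19 YAP and CCN genes 5 rose (26.3%) and 6 fell (31.6%), with 3 falls without set 1. The matricellular CCN proteins split: CCN1 read 14.52, 14.64 and 14.26 in liganded cells, against 12.29, 12.60 and 12.21 in uninduced cells (2.11 ± 0.14), while CCN3 (-0.80 ± 0.09) and CCN4 (-0.94 ± 0.15) fell. Of 21 neuronal and neuroendocrine genes 4 rose (19.0%) and 5 fell (23.8%). Beside TH, OTOF and NEFH above, SCG5, a chaperone of prohormone convertase 2, changed by -1.40 ± 0.18 and TUBB3, a neuronal tubulin, by -1.27 ± 0.17; falls numbered 3 without set 2. Of 14 keratins 5 rose (35.7%) and 3 fell (21.4%). KRT15 rose by at least 2.76-fold and KRT13 by at least 1.55-fold, and falls numbered 1 without liganded array 7, 8 or 9, without uninduced array 2 or without set 2 or 3.

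The full response of the ERβ line, measured on other arrays, gives a test of which changes differ between the lines. Each receptor was studied in its own transfected line, so effects of receptor and line cannot be told apart. Starting points differed for some genes named below. EPHA4 and CST1 were detected on 3 uninduced arrays of the ERα line and 0 of the ERβ line, and FGF21 on 0 and 3. In the ERβ line ESR2 stood at 11.39, 11.29 and 11.10 on the uninduced arrays, so the starting point of that line held receptor mRNA. The ERβ line had 5106 called genes (37.8%), 2164 higher (16%) and 2942 lower (21.8%). Rises of at least 2-fold shared by both lines numbered 381, which is 67.3% of the 566 in the ERα line and 46.7% of the 816 in the ERβ line (6.04% of all genes). Shared falls numbered 100, or 42.2% of 237 in the ERα line and 21.1% of 475 in the ERβ line (3.52% of all genes). The difference of the responses, ERα minus ERβ, was called for 2481 genes (18.4%), 1395 higher in the ERα line (10.3%) and 1086 lower (8.04%), and leaving out replicate set 1 left 905 and set 2 left 1329.

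Of the 18 genes named here for their difference, 9 (FGF21, ADAMTS20, OXT, CST1, TAS1R1, PTGER3, CLEC4M, ESR2 and EPHA4) were undetected on all arrays of at least 1 of the 4 groups. Their differences are between signals that include background and are neither exact sizes nor limits. The largest differences upward included MYC and genes of secreted signals. MYC changed by 1.66 ± 0.13 in the ERα line and by -1.69 ± 0.13 in the ERβ line, a difference of 3.35 ± 0.19 (adjusted p = 3.59e-08). BMP2 likewise changed by 2.04 ± 0.15 in the ERα line and by -1.31 ± 0.15 in the ERβ line (difference 3.35 ± 0.21, adjusted p = 8.12e-08). CCL2 changed by 1.17 ± 0.16 in the ERα line and by -2.47 ± 0.16 in the ERβ line, and the difference of 3.64 ± 0.22 had the same adjusted p. These 3 genes moved in opposite directions, each past the test in both lines. CXCL8 differed by 3.34 ± 0.40, with a change of -0.62 ± 0.29 in the ERβ line that did not pass (adjusted p = 0.106). FGF21 differed by 4.68 ± 0.59, with the rise of at least 2.11-fold in the ERα line and a change of -3.00 in the ERβ line. For ADAMTS20, a metalloproteinase (4.23 ± 0.24), the cytokine IL6 (3.46 ± 0.29) and INHBE, an inhibin subunit (3.29 ± 0.44), the difference came with falls in the ERβ line (-3.26 for IL6 and -2.82 for INHBE), while the ERα changes of 0.42, 0.20 and 0.47 did not pass (adjusted p = 0.0949, 0.551 and 0.316). The ERβ fall of ADAMTS20, undetected in liganded ERβ cells, was at least 11.7-fold. Its ERα change passed with the replicate number as a block (adjusted p = 0.0487), with a median shift (adjusted p = 0.0345) and with the authors' processed values (adjusted p = 0.0338).

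Among the differences downward, the ERβ line moved further up or the lines moved apart. EPHA4, an ephrin receptor, changed by -1.50 ± 0.14 in the ERα line and rose at least 3.02-fold in ERβ cells (difference -3.77 ± 0.20, adjusted p = 2.29e-08). CST5 and CST1, secreted cysteine protease inhibitors, differed by -6.56 ± 0.35 and -4.66 ± 0.29, with rises in the ERα line of 1.05 ± 0.24 and 2.61 ± 0.21 and in the ERβ line of 7.61 ± 0.24 for CST5 and at least 71.8-fold for CST1; the ERα rise of CST5 had an adjusted p of 0.0900 without replicate set 2. TAS1R1, a taste receptor subunit (-4.42), PTGER3, a prostaglandin receptor (-4.28), CLEC4M, a lectin (-4.13), HAVCR2, an immune checkpoint receptor (-3.53), and ESR2 itself (-4.10) also differed. OXT and OLFM1, the secreted protein olfactomedin 1, chosen after their values were seen, rose in the ERα line and did not pass in the ERβ line. OXT was undetected in both ERβ groups, so no size is given for it there, and the fitted difference of 2.27, which rests on background signal in 3 of the 4 groups, had an adjusted p of 0.000301. OLFM1 read 12.74, 12.88 and 13.11 in liganded ERα cells, against 10.14, 10.38 and 10.59 in uninduced ERα cells, and changed by 0.10 ± 0.12 in the ERβ line (adjusted p = 0.549), a difference of 2.43 ± 0.17 (adjusted p = 2.4e-07).

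**Figure D4:**
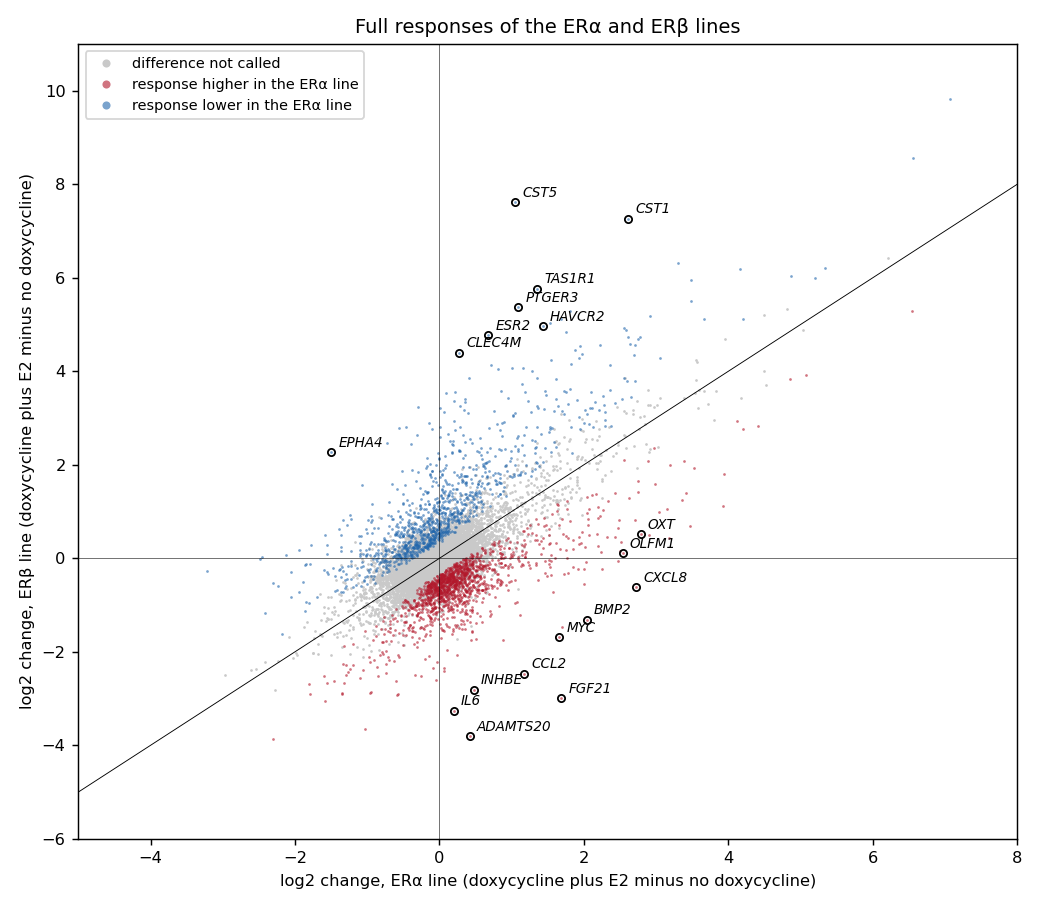
Full log2 change of each of the 13505 genes for ERα (horizontal) and ERβ cells (vertical), doxycycline plus E2 minus no doxycycline, 3 arrays a group. Red and blue points are genes whose response was called higher or lower in the ERα line, grey points were not called, the diagonal marks equal change, and MYC, BMP2 and CCL2 lie in the quadrant of rises in the ERα line and falls in the ERβ line.

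The lists were also counted in both lines. Over all genes 12.8% rose and 12.6% fell in the ERα line, and 16% rose and 21.8% fell in the ERβ line. Differences were called higher in the ERα line for 10.3% of all genes and lower for 8.04%. Of 36 replication and E2F genes, 19 rose and 1 fell in the ERα line, while 2 rose and 9 fell in the ERβ line, and the difference was called higher in the ERα line for 21 and lower for 0. Of 35 ATF4 and amino-acid stress genes, 9 rose and 1 fell in the ERα line, while 1 rose and 25 fell in the ERβ line, with the difference called higher in the ERα line for 25 and lower for 0. Mitochondrial ribosome and DNA expression genes numbered 0 rises (8 with the authors' processed values) and 1 fall in the ERα line and 0 rises and 17 falls in the ERβ line, and 11 of 33 differences were called, all higher in the ERα line. For interferon-stimulated genes the order was opposite, with 3 rises and 4 falls in the ERα line and 12 rises and 1 fall in the ERβ line, and 1 difference called higher and 9 lower. Classical estrogen targets rose in both, 32 of 43 with ERα and 27 with ERβ, with 9 differences called higher and 11 lower in the ERα line.

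**Figure D5:**
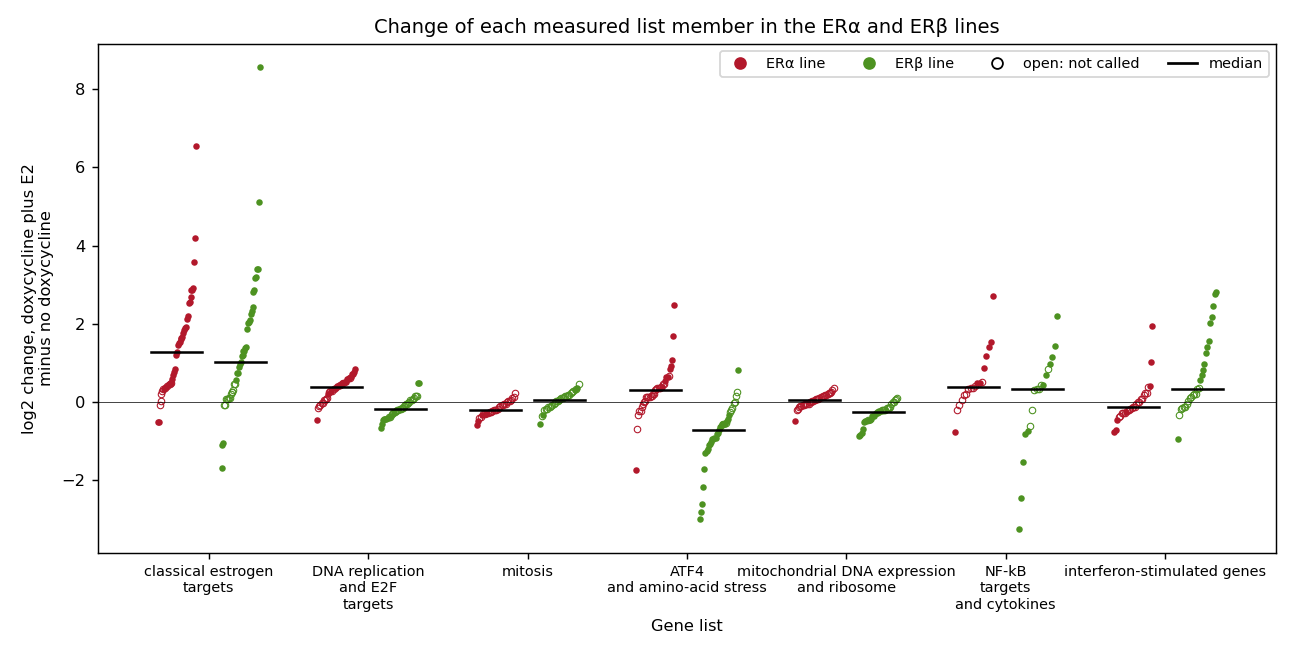
Log2 change, doxycycline plus E2 minus no doxycycline, of each measured member of 7 gene lists in the ERα line (red) and the ERβ line (green), with filled points called, open points not called and black bars at the medians. The medians of the ATF4 list are 0.30 for ERα and -0.71 for ERβ, and those of the replication list 0.37 and -0.17.

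Markers of other cell types were compared in the same way. Of 9 measured epithelial markers 2 rose (22.2%, against 12.8% of all genes) and 1 fell (11.1%, against 12.6%). Among them were ELF3 (1.56 ± 0.24) and KRT14 (-0.53 ± 0.11). The summed level of the 9 spanned 14.53 to 14.65 in liganded and 14.58 to 14.66 in uninduced cells. Of 9 fibroblast markers 0 rose and 3 fell (33.3%). The falls included the PDGF receptors PDGFRA, at 11.29, 11.06 and 11.50 in liganded cells, against 13.15, 13.02 and 13.16 in uninduced cells (-1.83 ± 0.14), and PDGFRB (-0.91 ± 0.10). No fibroblast marker rose at an unadjusted p below 0.05 in limma either, and their summed level spanned 15.22 to 15.32 in liganded and 15.68 to 15.81 in uninduced cells. Of 5 endothelial markers 1 rose, VWF, named after its value was seen, at 11.96, 12.03 and 11.72 in liganded cells, against 10.55, 10.74 and 10.13 in uninduced cells (1.43 ± 0.17), and the sums spanned 11.95 to 12.24 and 10.74 to 11.22. PECAM1 did not pass. Blood markers, 3 measured, summed to 8.65 to 9.08 in liganded and 8.41 to 8.83 in uninduced cells. The part of such cells in the results was not tested.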

How the data were processed

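The 18 U2OS samples form 6 groups of 3 by their labels, and their biotin-labelled RNA was read on Illumina arrays. The authors deposited a table of non-normalized probe intensity with detection p-values beside it, per the file headers. A second deposited table holds processed intensity made with lumi, per the submitters' processing notes, whose steps are not given in the sources used here; it served as an alternative. Of 48803 probes, 27578 had 1 gene symbol, 13 several and 21212 none in the platform annotation, and only the first kind is named.

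From the deposited intensity, log2 levels were computed with normexp background correction from the detection p-values and quantile normalization (neqc, limma 3.58.1, R 4.3.3, offset 16). The filter kept 24226 probes detected (p below 0.01) on 3 or more arrays, with the brightest probe for each of 13505 genes. Of 4899 further probes of these genes, 4 were called in the opposite direction, none for a gene named here. Group means were fitted jointly (12 residual degrees of freedom, 2.66 prior) with lmFit and eBayes, 2-sided, and adjusted over all genes. The procedure was tested on simulated data with independent arrays, which do not cover the pairing of same-numbered arrays described below. Arrays of the compared groups correlated at 0.985 to 0.994 within a group, and 0 pairs were identical.

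The column names give replicate numbers for uninduced arrays only. Liganded arrays took theirs by rank match to the processed columns (0.973 to 1, against at most 0.944), a step chosen after the data were seen. Deviations of same-numbered arrays from their group means correlated at 0.234, 0.511 and 0.554, so the numbers pair the arrays, and the block is an alternative. Other alternatives were the normalization, background correction, filter, probe choice, arrays fitted and leaving out arrays.

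Named genes were fixed target genes, the 16 largest rises and 14 largest falls among called genes whose arrays did not overlap, the 8 largest differences each way between lines, the 8 rises and 8 falls with the largest doxycycline change in the same direction, and up to 6 called members of each gene list with at least 2; some that depend on 1 setting are not printed. The comparison, the lists and the rules were chosen with earlier results of these data known. RefSeq promoters were matched by gene symbol.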

Additional observations from a re-analysis of the deposited data

Results flagged for a closer look

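The full response differed between the ERα and ERβ lines, by the test of the difference itself (ERα minus ERβ, log2, limma, 3 arrays in each of 4 groups), for the genes below. It was higher in the ERα line for FGF21 (4.68), ADAMTS20 (4.23), CCL2 (3.64), IL6 (3.46), BMP2 (3.35), MYC (3.35), CXCL8 (3.34) and INHBE (3.29). The same held for OLFM1 (2.43) and OXT (2.27), chosen after their values were seen. It was lower in the ERα line for CST5 (-6.56), CST1 (-4.66), TAS1R1 (-4.42), PTGER3 (-4.28), CLEC4M (-4.13), ESR2 (-4.10), EPHA4 (-3.77) and HAVCR2 (-3.53). FGF21, ADAMTS20, OXT, CST1, TAS1R1, PTGER3, CLEC4M, ESR2 and EPHA4 were undetected on all arrays of at least 1 group, so their values include background signal. ESR2 is carried by the vector of the ERβ line only. All 18 kept their direction and their call under the 19 alternatives in which they had a value. The genes were picked by their values in these data and the alternatives reuse the same arrays, so this is not independent support. Groups of 3 arrays were too small for a check on single outlying arrays.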

How the results depend on the processing

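Of 215 named values (full changes of 197 genes and 18 differences), all but that of ESR1 kept their direction under the 19 alternatives wherever they had a value. Fewer had a value among genes detected on all 18 arrays. ESR1 was not called, and its change was -0.10 without uninduced array 1, -0.02 without liganded array 9 and -0.11 without replicate set 1. With arrays left out it ranged from -0.11 to 0.37. Calls were lost most often without replicate set 1 (39 of 215 values), set 2 (29) and set 3 (21) and with only the arrays compared (20), and by 0 to 16 values under the others. The replicate block lost 0 of them, gained 1 (ADAMTS20, adjusted p = 0.0487, called also with a median shift and the authors' processed values) and changed no other named call; it gave 4478 calls for the full response, 811 at 2-fold or more and 3361 for the difference. The authors' processed values gave 5261 calls for the full response and 4284 for the difference, and 489 at 2-fold or more with or without the block. Calls of at least 2-fold numbered 428 with no background correction and 446 among genes detected on all 18 arrays, where fewer genes were tested. With an array or a replicate set left out, the full response had 1660 to 3275 calls, 778 to 820 at 2-fold or more, and the difference 905 to 2387. The doxycycline step, an alternative added after the data were seen, had 0 calls (527 at an unadjusted p below 0.05 in limma) with only the arrays compared, 34 with the authors' values (2 with the block too) and 0 to 3 with an array or set left out, with 424 and 567 at an unadjusted p below 0.05 in limma without set 1 and set 2, where there were 0. A median shift gave 1447 differences higher and 905 lower in the ERα line. Of 608 list counts, 528 were within 1.5 times. The authors' values gave 10 falls of receptor tyrosine kinases, 6 rises and 8 falls of G1 genes, 9 and 5 of immediate-early genes, 8 falls of glycolysis genes and 6 of fibroblast markers, and a median shift gave 5 WNT falls. The headers name no slide, so no slide block was run. Signals near background limit folds of undetected genes to lower bounds.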
